A study of Arabidopsis thaliana with 36 samples.

Results

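On an Affymetrix ATH1 array with 22810 probe sets, the 150 described here had the largest increase in signal in Arabidopsis roots from the first hours to 2 days across 4 nitrate treatments. They were chosen by that difference. On log2(signal + 16), the mean of each group of arrays was taken, and for each treatment the higher of the 2-hour and 8-hour means was subtracted from the 2-day mean. This difference is called the rise below. Probe sets were ranked by the lowest of their 4 rises, and the 150 highest of the 16091 non-control probe sets with a mean signal of at least 69 became members. In all, 3607 of the 16091 (22.4%) had a difference above 0 in each treatment. The platform annotation pairs 96 members with 1 gene and lists no gene for the other 54, which are counted but carry no gene name. The rises, and every difference between times or between treatments at a single time, share group means with this choice and are given as descriptions without a test.

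RNA came from roots of accession Columbia and was hybridised to 36 single-colour arrays, 1 per RNA sample, in 12 groups of 3 biological repeats. Plants were first grown with 0.5 mM ammonium succinate, 0.1 mM KNO3 and 3 mM sucrose, and the primary root was cut so that a pair of lateral roots became the main roots. At 12 to 14 days of age each plant was moved to a plate with 0.3 mM sucrose, on which the main roots lay in separate compartments. On uniform plates both compartments held 5 mM KNO3 (group C.NO3) or both held 5 mM KCl (C.KCl), while on split plates the KNO3 side (Sp.NO3) and the KCl side (Sp.KCl) of the same plants were collected apart, each after 2 hours, 8 hours or 2 days of treatment. All groups share the cut root, the ammonium-fed growth and the change of plate, and no group sampled roots before the transfer. The labels tie no array to a single plant. Which KCl samples are split differs between their titles and their treatment characteristics, and the titles were followed here. In whole roots, fewer cells of a type and less RNA per cell cannot be told apart.

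The deposited values are MAS5 signals, a brightness on a linear scale. Array medians ran from 194.1 to 221.6. Of 12 root markers listed, 2 had a probe set that names them alone and passed the signal minimum. PYK10, a root beta-glucosidase, had a median signal of 17700 at 2 hours, 15400 at 8 hours and 18400 at 2 days, and EXPA7, a root-hair expansin, 1180, 872 and 1440. Of 14 shoot and photosynthesis markers 2 were measured, RCA and LHCB4.2, and their summed signal ranged from 287.3 to 801.7 at 2 hours, from 214.6 to 641.7 at 8 hours and from 242.3 to 564.9 at 2 days. None of these markers was at 0. Their part in the members' values was not tested.

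Of the 96 named members, 11 encode proteins of pectin-related families, mostly enzymes, and 10 other wall proteins. These families were put together after the values were seen. In groups formed from gene names alone, 2 of 27 wall genes tested (EXLA2 and XTH21) and 2 of 20 glycosyl hydrolases and chitinases (GH9B17 and GH9C3) were members. So were 1 of 48 proteases and inhibitors (SCPL34) and 1 of 11 cytochromes P450 (CYP78A9). The remaining name groups, among them 39 oxidoreductases and oxygenases and 28 transcription factors, had 0. Matching by name misses genes of a class, because the gene table holds no product names. The 3 transcription factors and 2 peroxidases among the members, named below, were not matched in this way. Of all probe sets tested, 150 of 16091 are members, and these small counts carry no test. Pectin, a main polysaccharide of the growing wall, is laid down with methyl ester groups, which pectin methylesterases remove, and the bared chain can be cut by polygalacturonases and pectate lyases. Roots use such enzymes where cells expand, where a lateral root pushes through the tissue above it, and where cells of the root cap come loose.

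The rule value, the lowest of the 4 rises, ran from log2 1.82 (3.52-fold) to log2 0.60 (1.51-fold) with a median of 0.74 (1.67-fold). The median over all 16091 probe sets was -0.27. In 30 members it came to 1 or more, a doubling in every treatment. The last members inside the limit were AT3G52040, AT3G06890 and AT4G37090 at 0.598, 0.596 and 0.595, and the first probe set outside it was that of AT3G09690 at 0.592, so the boundary marks no gap. The members' mean signals ran from 74.0 to 5178, with 21 below 150.

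On each array the mean of log2(signal + 16) over the 150 members lay between 8.35 and 8.73 at 2 hours, between 8.49 and 8.77 at 8 hours and between 9.62 and 9.77 at 2 days. The lowest array of 2 days was thus above the highest earlier one, a separation that the choice of members favours. The mean over all probe sets tested was 8.80 to 8.86, 8.81 to 8.85 and 8.75 to 8.80. In 120 of the 150 members each of the 12 arrays of 2 days was above each of the 24 earlier arrays, against 497 of all probe sets tested (3.09%). Because the rule used the same contrast, nothing is read from that count. Within a treatment, 142 members had no overlap between 2 days and the earlier times in any of the 4 treatments, as did 4.9% of all probe sets tested, and nothing is read from this either. The ribosomal gene AT3G57490, for S2, was separated in only 1. Its 24 earlier arrays ran from 759 to 2564 and its 12 arrays of 2 days from 1548 to 3644.

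**Figure D1:**
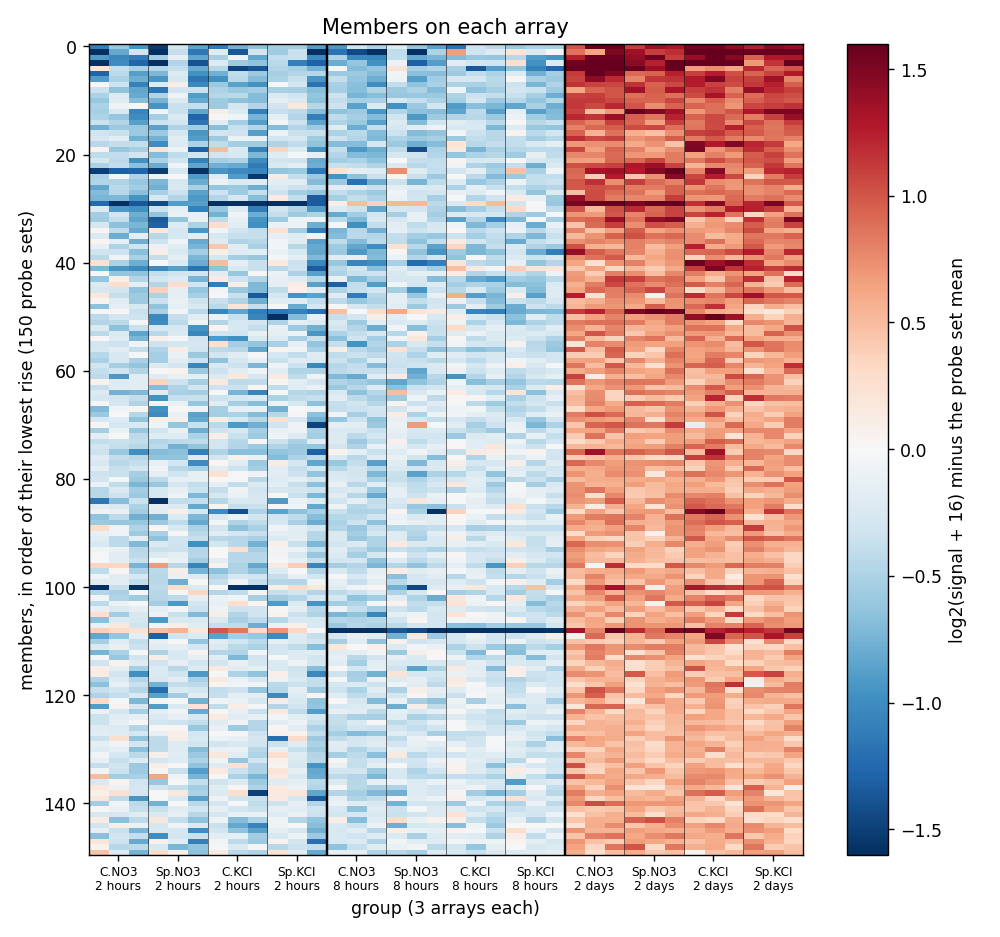
Heat map of log2(signal + 16) minus the mean of each probe set, for the 150 members (rows, ordered by rule value) on the 36 arrays (columns, 3 per group, grouped by time). The 12 columns of 2 days are above the mean in nearly all rows, and the single row with a dark 8-hour block near rank 109 is AT5G15950.

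A 3′ to 5′ signal ratio, which goes up as RNA integrity falls, was also higher at 2 days. The mean log2 ratio of 3′ to 5′ control probe sets for GAPDH, actin and ubiquitin was 1.099 to 1.63 at 2 hours, 1.00 to 1.67 at 8 hours and 1.57 to 1.94 at 2 days, with medians of 1.39, 1.27 and 1.71. After the slope of each probe set on this ratio within groups was removed, the members' median lowest rise was 0.66 in place of 0.74. All 150 stayed above 0, the lowest at 0.16, and 112 stayed at 0.5 or more. Ranked on these values, 103 of the 150 would still be chosen. Within groups, the slope on the ratio was above 0 in 115 of the 150 members and in 48.4% of all probe sets tested, with medians of log2 0.35 and -0.02 per unit of the ratio. After group means were removed, the mean over the members correlated with the ratio across arrays (Pearson r = 0.517). The part of RNA integrity in the rises beyond this was not tested. These calculations were added after the data were seen.

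The 4 treatments had rises of similar size. Ranking by the lowest of the 4 rises favours this, so nothing is read from it. The median rise was log2 0.93 (1.90-fold) in C.NO3, 0.87 (1.83-fold) in Sp.NO3, 0.93 (1.90-fold) in C.KCl and 0.90 (1.86-fold) in Sp.KCl. The medians over all probe sets tested were -0.09, -0.09, -0.12 and -0.12. The treatment with a member's lowest rise was C.KCl in 58 members, Sp.NO3 in 36, Sp.KCl in 34 and C.NO3 in 22. Within a member, the highest and lowest of the 4 rises lay a median of log2 0.30 apart, from 0.03 to 0.87.

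**Figure D2:**
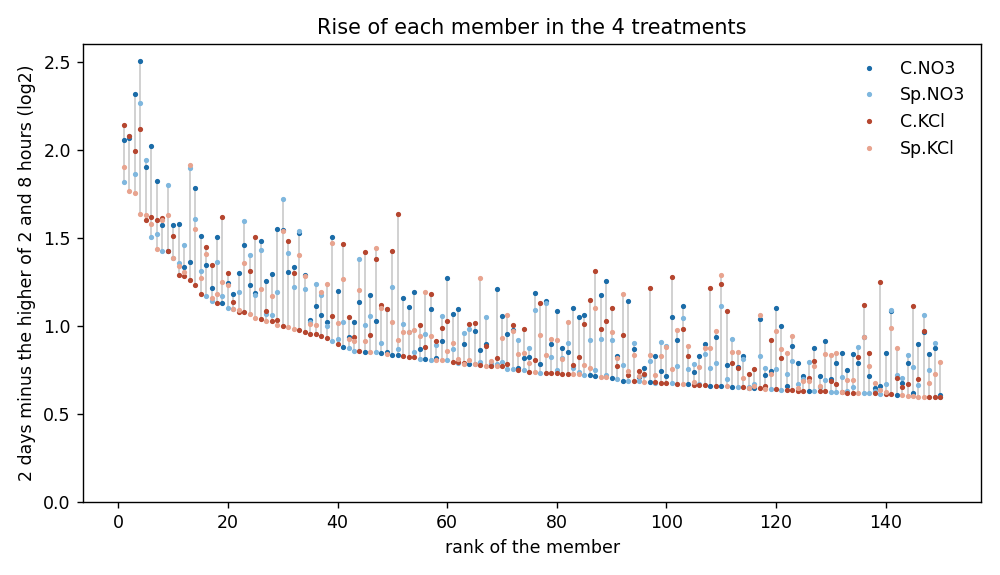
The rise (log2, 2 days minus the higher of the 2-hour and 8-hour means) of each of the 150 members in the 4 treatments, by rank. Grey lines join the lowest and the highest rise of a member, and the lowest one sets its rank.

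The same measure was also taken in repeats that took no part in a choice. This alternative was chosen with the data in view. Choosing 150 probe sets by the same rule from the other repeats, 138 of 150 had a rise above 0 in all 4 treatments in repeat 1, 143 in repeat 2 and 147 in repeat 3. These were not the same 150 as the members described here, which shared 121, 126 and 117 probe sets with them. Of all probe sets ranked, 12.9%, 16.8% and 20.6% had a rise above 0 in all 4 treatments in repeats 1, 2 and 3. The median lowest rise in the repeat left out was 0.48, 0.58 and 0.66. In the repeats that made the choice it was 0.77, 0.72 and 0.68.

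Pectin-modifying enzymes were the family with most named members, 11, with rule values from 1.57-fold to 3.52-fold. The families carry no test. Their genes were not counted among all probe sets tested, so no share stands beside these counts and none is read as a trait of the members. AT1G65570, a polygalacturonase known from the root cap, ranked first. Its signal was 116.3 at the lowest, 231.5 at the median and 313 at the highest over the 24 earlier arrays, and 746, 987 and 1293 over the 12 arrays of 2 days. No earlier array reached the lowest array of 2 days. At 2 days its arrays were 746, 1293 and 1172 in C.NO3, 798, 961 and 918 in Sp.NO3, 1085, 1086 and 997 in C.KCl and 886, 1024 and 978 in Sp.KCl, and these groups overlapped. Its rise was 4.17-fold, 3.52-fold, 4.42-fold and 3.74-fold in the same order.

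The other members of the pectin family had smaller values. The pectin methylesterase AT5G04970 went from 244.6, 344 and 431 (lowest, median and highest of the earlier arrays) to 638, 847 and 953 at 2 days. AT4G37950, of the rhamnogalacturonate lyase family, went from 23.1, 60.2 and 101 to 115.6, 159.6 and 191, near the low end of the signals kept. The polygalacturonase-family genes AT2G43880 and AT2G43890, which lie next to each other in the gene order, differed in time course. AT2G43890 was already log2 0.61 higher at 8 hours than at 2 hours, while AT2G43880 was lower by 0.14. The remaining members of the family are the pectin methylesterases AT3G47400 and AT1G02810, AT5G51520 of the invertase and methylesterase inhibitor superfamily, the pectate lyase-family genes AT5G48900 and AT3G24670, and the pectin acetylesterase AT1G57590. All 11 had every array of 2 days above every earlier array. So did 120 of the 150 members and 3.09% of all probe sets tested. The choice of members favours this separation. Nothing is read from it, or from the overlaps between times given for other families and genes.

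A further 10 members encode other wall proteins, with rule values from 1.59-fold to 2.69-fold. AT5G10130, of the Ole e 1 and extensin family, had signals of 851, 1363 and 2092 (lowest, median and highest) on the earlier arrays and 3757, 4160 and 4679 at 2 days. AT1G19900, related to the galactose oxidases, had 277, 392 and 630 and then 920.5, 1156 and 1299. Neither gene had an overlap between the times. The cupredoxin-type wall proteins sks15 and sks16 had medians of 641 and 611 before and 2001 and 1299 at 2 days. EXLA2, an expansin-like protein, had medians of 104.8 and 279, and XTH21, which cuts and rejoins xyloglucan, 384 and 824. The cellulase-family genes GH9B17 and GH9C3 had medians of 73.6 and 147 before and 218 and 284.5 at 2 days. TBL37, of a family that acetylates wall polysaccharides, and AT3G18170, a family 61 glycosyltransferase, complete the group. XTH21 was the one wall protein of the 10 with an overlap.

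Of the 4 members related to late embryogenesis abundant (LEA) proteins, all had rule values above 2-fold, from 2.19-fold to 3.11-fold. AT3G19430 ran from 103.6 to 844 with a median of 418 on the earlier arrays and from 1122 to 3290 with a median of 2264 at 2 days. Its rise differed by treatment, from 5.68-fold in C.NO3 and 4.82-fold in Sp.NO3 to 4.34-fold in C.KCl and 3.11-fold in Sp.KCl. AT5G60530 had medians of 1362 and 3944, AT5G54370 of 2183 and 6140 and AT4G27400 of 276 and 706. In each of the 4 the 2-day arrays stood clear of the earlier ones.

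**Figure D3:**
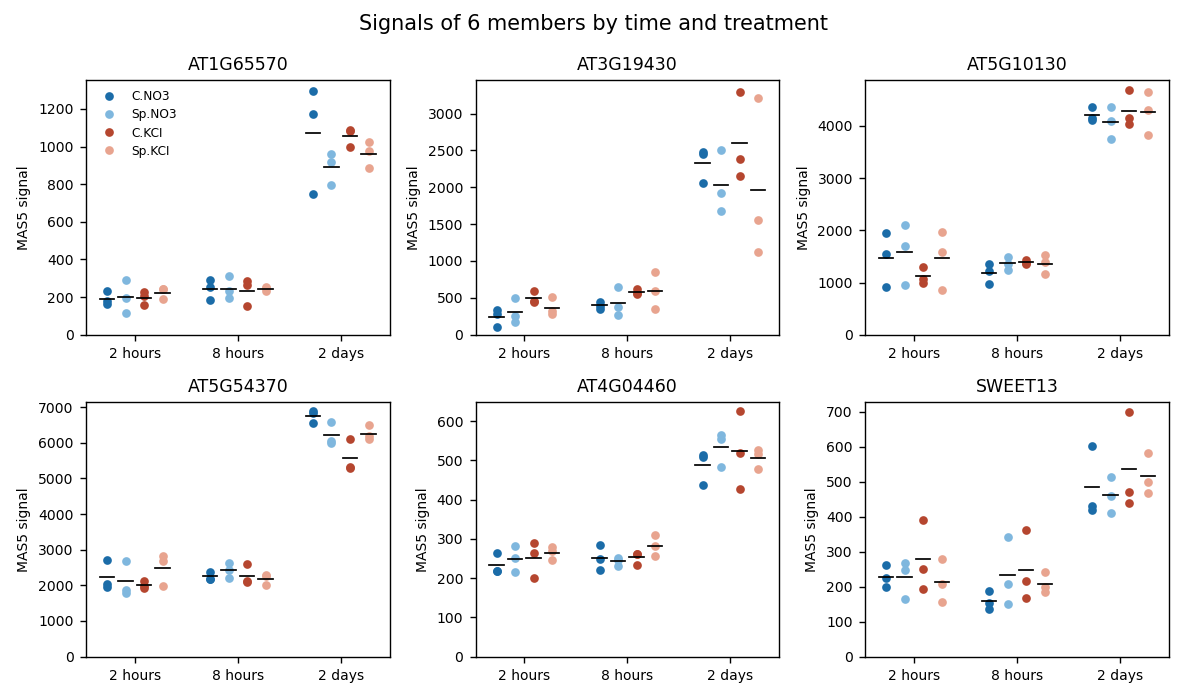
MAS5 signal (linear, from 0) of 6 members by time of collection. Each point is 1 array, colours mark the 4 treatments and black bars are group means of 3 arrays. In all 6 the 2-day points lie above every earlier point.

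Proteases gave 6 members with values from 1.56-fold to 1.75-fold. AT4G04460, an aspartic protease used as a marker of developmental cell death in the root cap, had signals of 199, 253 and 310 before and 428, 515 and 626.5 at 2 days. Its rise was 1.89-fold in C.NO3, 2.08-fold in Sp.NO3, 1.99-fold in C.KCl and 1.75-fold in Sp.KCl. The others are the aspartic proteases AT3G54400 and AT3G50050, the cysteine protease AT3G43960, the subtilase SBT4.12 and the serine carboxypeptidase-like SCPL34. AT3G50050 was the one protease with an overlap between times.

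Defence-type proteins and lectins gave 5 members. The chitinase-family gene AT2G43600 had medians of 250 and 835, the thaumatin-family gene AT1G73620 of 1051 and 2676, and AT1G50060, of the family of pathogenesis-related protein 1, of 624 and 1319. The jacalin-type lectins AT1G52070 and AT1G52050, 2 genes apart, had medians of 2300 and 2371 before and 5357 and 4803 at 2 days. None of the 5 had an overlap between times. The peroxidase AT2G39040 ran from 320 to 530 and then from 853 to 1165, and AT2G43480 was the other peroxidase. The terpene synthases AT3G32030 and AT1G70080 had medians of 715 and 41.8 before and 1889 and 131 at 2 days.

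Genes of nitrogen and sugar use gave 4 members. ASPGB1, an asparaginase that frees ammonium from asparagine, is described with the medium below. SWEET13, a sucrose carrier, had signals of 136, 206 and 391 on the earlier arrays and 410, 468 and 698 at 2 days. No earlier array reached the 2-day range, and its rise was 2.03-fold in C.NO3, 2.00-fold in Sp.NO3, 1.91-fold in C.KCl and 2.36-fold in Sp.KCl. The sucrose-phosphatase AT2G35840, which completes sucrose synthesis, had medians of 357 and 694, and the branched-chain aminotransferase AT1G50110 of 555 and 1029.

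The 3 transcription factors among the named members were AT3G25790 (HHO1), AGL21 and AT2G38090. AGL21, a MADS-box factor known for promoting lateral root growth, ran from 206 to 414 with a median of 284 and at 2 days from 502 to 714 with a median of 604. It neighbours the pectin gene AT4G37950. Its rise was 1.58-fold in C.NO3, 1.70-fold in Sp.NO3, 2.33-fold in C.KCl and 1.83-fold in Sp.KCl. The MYB-like gene AT2G38090 had medians of 164 and 426.

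Other members with high values included AT1G23160, of the GH3 family that joins hormones to amino acids. It had signals of 85.0, 118 and 192.5 before and 405, 564 and 688 at 2 days, with rises from 3.38-fold to 4.99-fold. The remorin AT3G48940, a membrane protein, had medians of 202 and 654. The heavy-metal-binding family gene AT5G50740 had 207 and 531, the stress-responsive barrel-family gene AT5G22580 129 and 368, and the Stig1-family gene AT4G26880 43.5 and 149.5. For AT1G61840 the medians were 65.2 and 170. The earlier and the 2-day arrays of these 6 genes did not overlap. AT5G66815, the precursor of a CEP signalling peptide, had medians of 124 and 337 and did overlap.

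Between 2 and 8 hours the members moved little. Subtracting the higher of the 2-hour and 8-hour means favours this. The counts below were not taken over all probe sets, so nothing is read from them. The difference of 8 hours minus 2 hours, averaged over treatments, was above 0 in 93 members and below 0 in 57, with a median of log2 0.04 against -0.01 over all probe sets tested. It exceeded 0.5 upward in 5 members, AT2G43890, AT3G19430 and 3 without a listed gene, and downward in 1, AT5G15950, singled out after its values were seen. AT5G15950 encodes an S-adenosylmethionine decarboxylase of polyamine synthesis. Its mean signal at 2 hours was 691 ± 38.0 (SD, n = 3) in C.NO3, 749 ± 101 in Sp.NO3, 939 ± 225 in C.KCl and 720 ± 189 in Sp.KCl. At 8 hours it was 149 ± 9.08, 174 ± 44.0, 145 ± 19.8 and 166 ± 9.82, and at 2 days 1375 ± 387, 1318 ± 279, 1470 ± 149 and 1403 ± 203. All 12 arrays of 8 hours were below all arrays of the other times, and the 8-hour minus 2-hour difference was log2 -2.17.

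At 2 days the members' median differences between media were near 0. The same values were not taken over all probe sets, so none below is read as a trait of the members. Nitrate minus chloride on uniform plates had a median of log2 -0.01, with 72 members above 0 and 78 below. On split plates the median was -0.01, with 70 above and 80 below. The uniform differences ran from -1.14 (AT2G40250) to 0.98 (AT5G62420), and 12 members lay beyond 0.5 in either direction. Other low values were -0.96 for the cytochrome P450 CYP78A9 and -0.94 for ASPGB1, and other high ones 0.59 for GH9B17 and 0.54 for the lectin AT1G52050. The split differences ran from -0.68, at a probe set without a listed gene, to 1.27 (AT3G25790), with 7 beyond 0.5, among them -0.55 for the CEP precursor AT5G66815.

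The mean over the times of a difference between treatments does not enter the rule and was tested with limma over all 16091 probe sets, 9 arrays per side, with two-sided p-values adjusted by the Benjamini-Hochberg method and a threshold of 0.05. On uniform plates 9 of 150 members passed for nitrate against chloride, 3 higher and 6 lower in nitrate, where 3.34% of all probe sets passed (1.58% higher, 1.76% lower). With the repeat number as a block, which pairs these arrays, 21 members passed, where 8.48% of all probe sets did. At an unadjusted p under 0.05, 32 members and 17.4% of all probe sets passed. The members' median difference was log2 -0.06, against a median near 0 over all probe sets, and 56 of 150 were above 0, against 49.4% of all. On split plates 4 members passed, 3 higher and 1 lower, where 1.15% of all passed (0.839% higher, 0.311% lower). With the block, which suits sides taken from the same plants, 9 passed, where 2.27% of all did. Adjusted p-values given below for single genes are from the fit without the block, which does not pair the sides. At an unadjusted p under 0.05, 16 members and 8.09% of all probe sets passed, and the members' median was -0.03.

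AT3G25790 is HHO1, a transcriptional repressor of the nitrate response that nitrate itself induces. On uniform plates its signal was 189, 303 and 603 (lowest, median and highest of 9 arrays) with nitrate and 105.7, 130.0 and 431 with chloride. On split plates it was 167, 287 and 776 on the nitrate side and 98.4, 142 and 323 on the chloride side. On both kinds of plate and at each of the 3 times all nitrate arrays were above all chloride arrays of that time. The difference in limma was log2 0.79 ± 0.10 (SE) on uniform plates (adjusted p = 2.59e-06) and 1.05 ± 0.10 on split plates (adjusted p = 9.47e-09). The difference between these values, 0.26 ± 0.14, did not pass (adjusted p = 0.551).

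Its rise in chloride follows from the choice of members and is given as a description. At 2 days the arrays were 431, 379 and 370 in C.KCl and 303, 282 and 323 in Sp.KCl, each above all earlier arrays of its own treatment. In nitrate they were 556, 603 and 480 in C.NO3 and 724, 776 and 749.5 in Sp.NO3. The chloride arrays of 2 days overlapped the nitrate arrays of 8 hours.

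SBT4.12, a subtilisin-type protease, was higher in nitrate by a similar amount on both plates. Its 9 arrays were 2797, 3765 and 6387 (lowest, median and highest) in C.NO3, 2335, 2825 and 5084 in C.KCl, 2909, 3280 and 6286 in Sp.NO3 and 2209, 2682 and 4938 in Sp.KCl. Nitrate and chloride arrays of a time overlapped at 2 hours on uniform plates and at no time otherwise. The difference was 0.36 ± 0.06 on uniform plates (limma, adjusted p = 0.000122) and 0.36 ± 0.06 on split plates (adjusted p = 0.000142).

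AT5G62420, of the aldo-keto reductase family, passed on uniform plates. At 2 days its signals were 718, 696 and 745 in C.NO3, 354, 371 and 343 in C.KCl, 746, 581 and 896 in Sp.NO3 and 518, 428 and 449 in Sp.KCl. Nitrate stood above chloride at 2 days on both plates, while at 2 and 8 hours the uniform groups overlapped. The difference over the times was 0.77 ± 0.14 on uniform plates (limma, adjusted p = 0.000868) and 0.47 ± 0.14 on split plates (adjusted p = 0.136), and the difference between the plates did not pass (-0.30 ± 0.20, adjusted p = 0.639).

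**Figure D4:**
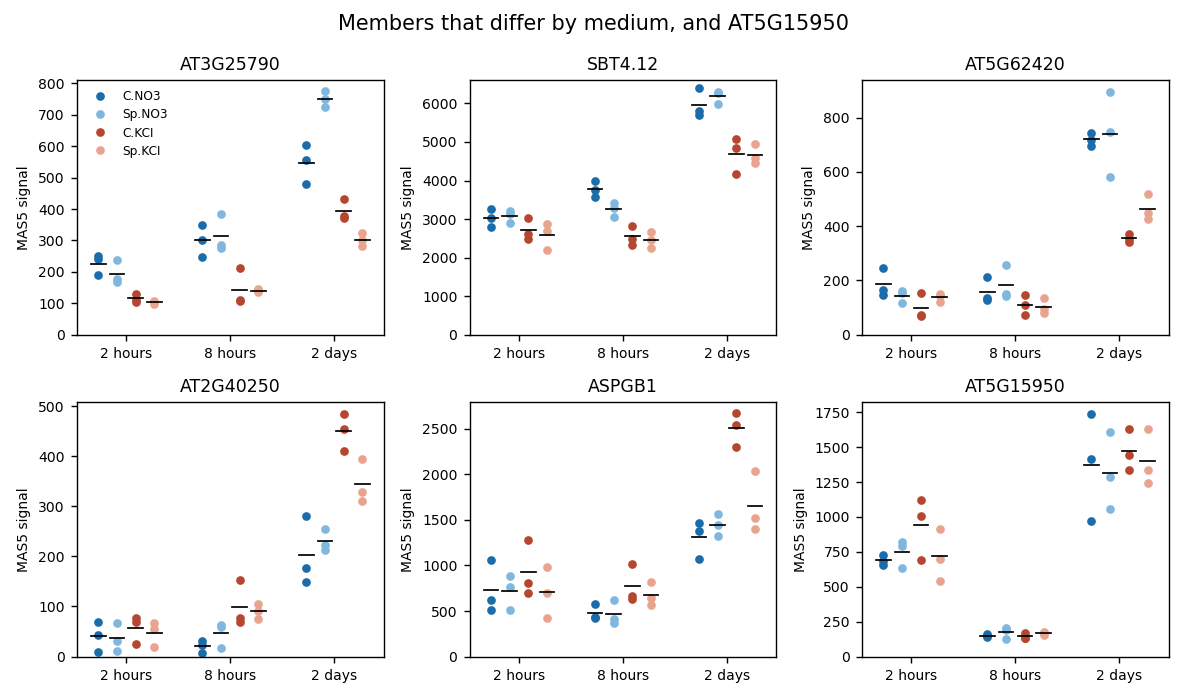
MAS5 signal (linear, from 0) by time and treatment for 5 members that passed for nitrate against chloride on uniform plates, and for AT5G15950. Points are single arrays and black bars are means of 3. AT3G25790, SBT4.12 and AT5G62420 are higher in nitrate at 2 days, AT2G40250 and ASPGB1 higher in C.KCl than in C.NO3, and AT5G15950 is lowest at 8 hours in all 4 treatments.

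ASPGB1 was lower in nitrate on uniform plates. Its 9 arrays were 422, 622.5 and 1471 (lowest, median and highest) in C.NO3 and 632, 1021 and 2675 in C.KCl. At 2 days the arrays were 1382, 1074 and 1471 in C.NO3, 2675, 2300 and 2546 in C.KCl, 1564, 1328 and 1447 in Sp.NO3 and 2039, 1398 and 1517 in Sp.KCl. The uniform groups were apart at 8 hours and 2 days and overlapped at 2 hours, and the split groups overlapped at 2 days. The difference was -0.65 ± 0.15 on uniform plates (limma, adjusted p = 0.0132) and -0.21 ± 0.15 on split plates (adjusted p = 0.856), with a difference between plates of 0.43 ± 0.22 (adjusted p = 0.516).

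AT2G40250, of the GDSL lipase family, had low signals early. Its 9 arrays were 7.98, 44.1 and 281.5 (lowest, median and highest) in C.NO3 and 24.9, 76.6 and 484 in C.KCl. The groups overlapped at 2 hours and were apart at 8 hours and 2 days. The difference was -1.08 ± 0.24 (limma, adjusted p = 0.0067) on uniform plates and -0.57 ± 0.24 on split plates (adjusted p = 0.472). Several early values lie near the added constant of 16, so its size depends on that constant, from -0.71 to -1.41 over the alternatives run.

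The pectin methylesterase AT1G02810 had 9 arrays of 305, 342.5 and 916 (lowest, median and highest) in C.NO3 and 348, 476 and 1008 in C.KCl, with no overlap at any time. The difference was -0.30 ± 0.07 on uniform plates (limma, adjusted p = 0.0105) and -0.01 ± 0.07 on split plates (adjusted p = 0.995), and between plates 0.29 ± 0.10 (adjusted p = 0.292). AT1G63530 passed narrowly, with -0.34 ± 0.10 on uniform plates (adjusted p = 0.0485). Its 9 arrays were 194.5, 268 and 504 in C.NO3 and 248, 328 and 727 in C.KCl. Without any 1 of 14 of the 18 arrays it no longer passed, at adjusted p up to 0.121. The 4 arrays whose removal kept it were C.NO3 at 2 hours repeat 2, C.NO3 at 2 days repeat 3, C.KCl at 8 hours repeat 3 and C.KCl at 2 days repeat 1.

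These calls depend on how the KCl labels are read. With the C.KCl and Sp.KCl arrays exchanged, as the treatment characteristics give them, 3 members passed on uniform plates, where 0.845% of all probe sets did, and 11 on split plates, where 2.82% did. AT3G25790 and SBT4.12 passed on both plates under either reading. On uniform plates AT5G62420 (adjusted p = 0.111), AT2G40250 (0.100), AT1G02810 (0.936), ASPGB1 (0.842) and AT1G63530 (0.993) did not pass in limma after the exchange. Among the probe sets without a listed gene, 1 was lower in nitrate on both plates (-0.64 ± 0.10, adjusted p = 0.000191, and -0.55 ± 0.10, adjusted p = 0.00192), 1 lower on uniform plates and 1 higher on split plates.

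**Figure D5:**
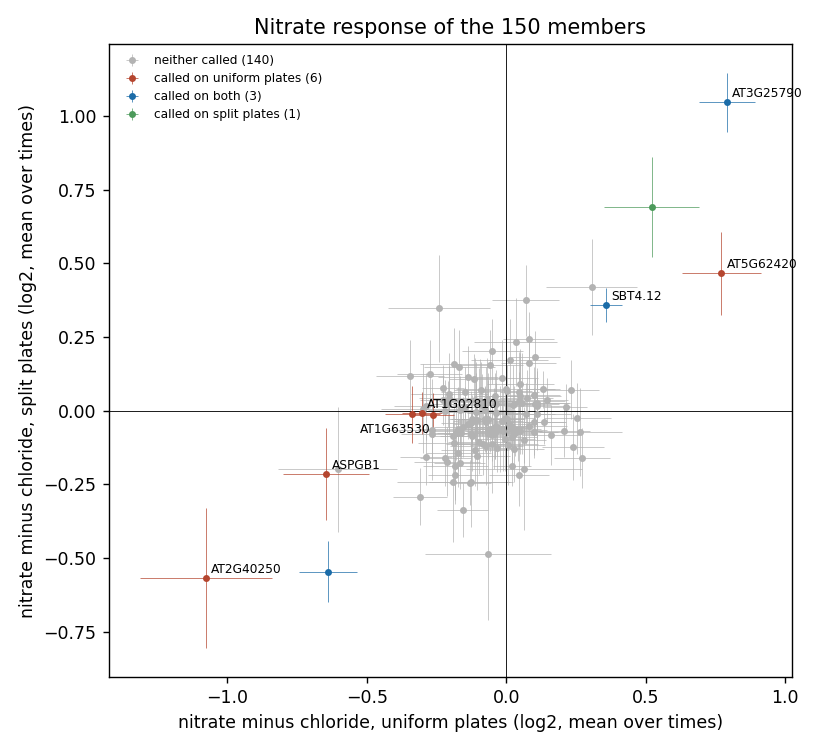
Nitrate minus chloride (log2, mean over the 3 times) on uniform plates (x axis) against split plates (y axis) for the 150 members, with bars of 1 SE from limma. The axes share no arrays. The 140 grey members passed on neither in the fit without the block, and AT3G25790 lies farthest toward the upper right.

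Split against uniform plates gave few calls. On the nitrate side no member passed, where 0.00621% of all probe sets did. At an unadjusted p under 0.05, 7 members and 5.37% of all passed there. On the chloride side 1 member passed, lower on split plates, where 0.218% of all did, and unadjusted 15 members and 11.8% of all passed. The called member was the receptor-like kinase gene AT3G21340. Its 9 arrays were 138, 180.0 and 339 (lowest, median and highest) in C.KCl and 71.6, 128 and 232 in Sp.KCl, with no overlap at any time. The difference was -0.55 ± 0.12 (limma, adjusted p = 0.0485).

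That call was narrow. It ended without any 1 of 14 of the 18 arrays, at adjusted p up to 0.12, and the 4 whose removal kept it were Sp.KCl at 2 hours repeat 2, at 8 hours repeat 1 and at 2 days repeat 3, and C.KCl at 2 days repeat 3. Its sign turns if the KCl groups are exchanged, by construction. The interaction of plate with medium passed in no member in limma, where 0.112% of all passed (0.0932% higher on split plates, 0.0186% lower). With the block 1 member passed, where 0.827% of all did, and unadjusted, without the block, 13 members and 10.2% of all passed. Without the block, the nitrate differences called on one kind of plate alone were thus not shown to differ between plates.

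Lists of known pathways, 254 loci in 17 lists, were set beside the members. Only 33 of those loci had a probe set that names them alone and was tested, in 12 of the lists, and none was a member. The values below are rule values, each the lowest of 4 rises. Over all probe sets tested their median was -0.27, and 22.4% were above 0. The 4 sugar-starvation genes measured had values from -1.43 to -0.61, and 1 of 9 autophagy genes was above 0 (ATG8H, 0.08). Of the cell division genes all 3 measured were above 0, AUR1 at 0.20, PRL at 0.20 and AUR2 at 0.25. The 3 root hair genes had values from -0.15 to -0.05. In each the lowest rise was in C.NO3, and the rises in Sp.NO3, C.KCl and Sp.KCl were above 0. The 5 ageing genes had values from -0.92 to -0.16, and the clock gene GI had -1.45. These are values without a test, and the loci not measured were not analysed here.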

How the data were processed

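The deposited values are intensity values (MAS5 signals, per the submitters' processing notes, which give no version). From the values, each array's mean, trimmed by 2% at either end, is 500. The sources used here give no other upstream step. Of 22810 probe sets, 64 controls were left out, and 16091 with a mean signal of at least 69 were tested, as log2(signal + 16) without further normalization. In R 4.3.3, limma 3.58.1 fitted 12 group means to 36 arrays (lmFit, contrasts.fit, eBayes with trend; 24 residual degrees of freedom, a median of 7.08 from the prior) and adjusted over all probe sets. The procedure was also run on simulated data. Their noise was independent between arrays and between probe sets, so the run cannot show how the shared deviations of same-numbered arrays affect the calls. Only contrasts averaged over the times were tested. Precision is limited by the number of arrays, which is 3 per group.

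Members and lists were chosen with earlier results of these data known. Genes named are the 30 highest single-gene members, those at the limit, those passing a contrast, those with extreme medium differences at 2 days and list members. Further members are named as examples of a family, chosen after their values were seen. Gene names come from the platform annotation, matched to RefSeq loci (assembly TAIR10.1) for 13436 of 13513 probe sets with 1 gene. That table holds no product names, so roles are background knowledge. Same-numbered arrays on uniform plates deviated together (correlations of 0.111 to 0.424, 9 of 9 pairs over 0.1). Alternatives were quantile normalization, other constants and filters, no trend, only the compared arrays, a replicate block, exchanged KCl groups, each array left out, and the study's analysis of variance by probe set. Promoter motifs were not analysed here.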

Additional observations from a re-analysis of the deposited data

How the results depend on the processing

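The count on uniform plates (9) was 21 with the replicate block and 3 with the KCl groups exchanged. On split plates (4) it was 9 with the replicate block and 11 after the exchange. The study's analysis of variance, at an unadjusted p under 0.001, gives 1 effect of nitrate over both kinds of plate, which 8 members and 2.71% of all probe sets passed. The chloride-side count (1) was 4 with the replicate block and 0 with quantile normalization, a constant of 1, no filter, only the compared arrays or that analysis's effect of split (0.224% of all), and 0 to 2 without single arrays. The interaction count (0) was 1 with the replicate block. Same-numbered arrays correlated above 0.1 in 8 of 9 pairs on split plates, whose sides share plants. On the chloride side 6 of 9 pairs did, so the numbers are not taken to pair those arrays. With the block 366 and 275 probe sets passed in place of 185 and 35. The block ended no call of a named gene, and the further members that passed with it are not named here. Without single arrays the uniform count was 7 to 9 and the split count 3 to 5. After the exchange AT1G63530 had 0.028 on uniform plates and AT3G21340 0.55 on the chloride side. AT1G63530 also missed the threshold with quantile normalization (adjusted p = 0.0505), no filter (0.0706), no trend (0.0543) and the 3′ to 5′ ratio as a covariate (0.0679, added after the data were seen), and AT3G21340 with quantile normalization (0.084), a constant of 1 (0.0528), no filter (0.0795) and only the compared arrays (0.0654). Apart from the exchange's construction, the causes were not tested. Of the 150 members 137 were chosen again with quantile normalization, 142 with a constant of 1, 131 with 64, 143 without a filter, 129 with a mean signal of at least 150 and 137 to 148 without single arrays.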

Other observations

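Arrays of 1 group also varied together over the members. After group means were removed, the mean correlation between pairs of members over the 36 arrays was 0.173, against 0.003 over all probe sets tested. This is a description across arrays that share repeats and preparation. In each 2-hour group repeat 3 had the lowest mean over the members, by log2 0.125 below its group mean in C.NO3, 0.160 in Sp.NO3, 0.146 in C.KCl and 0.225 in Sp.KCl. The 3′ to 5′ ratio of those arrays was 1.15, 1.099, 1.42 and 1.28, the lowest of its group in C.NO3, Sp.NO3 and C.KCl and not in Sp.KCl.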
